A study of Homo sapiens with 12 samples.

Results

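The genes described here are the 10 core genes of the transforming growth factor beta (TGF-beta) pathway: the ligands TGFB1, TGFB2 and TGFB3, the latency protein gene LTBP1, the receptor genes TGFBR1, TGFBR2 and TGFBR3, and the signal transducers SMAD2, SMAD3 and SMAD4. They were picked by symbol, with earlier results of these data known, by a rule that uses no measured value, and all 10 were found among the 27968 genes of the deposited tables. RNA was sequenced from A549, an established human lung adenocarcinoma line, and MDA-MB-231, an established human breast cancer line of mesenchymal character. The groups were A549 in 3D, A549 in 2D, MDA-MB-231 in 3D and MDA-MB-231 in 2D, with 3 libraries each and 12 in all, and the series asked which genes the extracellular matrix regulates in cancer cells. The 3D cells grew in Matrigel and were taken on day 4, while the 2D cells grew on a flat surface and were taken at about 80% confluence. All groups had DMEM with 10% FBS and no further treatment, and none carried an engineered allele. Time in culture and cell density differ along with the matrix, and each line is a single line of its tissue. Whether replicate libraries stem from independent cultures is not said in the labels, and the p-values therefore cover the spread among these samples alone, which may be technical.

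TGF-beta is secreted in a latent form, bound to its own propeptide, and latent TGF-beta binding proteins such as LTBP1 tether that complex to the extracellular matrix. Once released, the ligand binds the type II receptor TGFBR2, which recruits and phosphorylates the type I receptor TGFBR1. TGFBR3, or betaglycan, is a co-receptor that presents ligand and is known for the help it gives TGFB2, which binds TGFBR2 weakly by itself. The active receptor phosphorylates SMAD2 and SMAD3, which join SMAD4 and act on genes in the nucleus. In epithelial tumour cells the pathway is known for arresting growth and for driving epithelial-mesenchymal transition. Matrigel and serum can themselves hold TGF-beta protein, and RNA counts say nothing of how much ligand was active.

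Total expected counts, the read totals that RSEM assigned to genes, ranged from 5609327 to 28171901 per library. Ribosomal RNA took 3.53% to 16.5% of counts in A549 3D libraries, against 0.311% to 0.483% in A549 2D libraries, and 4.01% to 6.5% in MDA-MB-231 3D libraries, against 1.12% to 1.18% in MDA-MB-231 2D libraries. Replicates of A549 3D stood furthest apart by a chi-square over its degrees of freedom. That measure also grows with depth and takes in ribosomal RNA, whose share differed among these libraries. Between pairs of libraries it was 26.8 to 162.8 in A549 3D, against 2.71 to 3.1 in A549 2D. In MDA-MB-231 it was 4.46 to 11.5 in 3D, against 3.56 to 6.64 in 2D. Results that change when 1 library is left out are named beside them. Mean fragment length was 133 to 140 bases in A549 3D against 175 to 186 in A549 2D, with 180 to 187 in MDA-MB-231 3D against 207 to 216 in MDA-MB-231 2D. With ribosomal and small RNA genes left out of the totals, each of the 10 genes kept its side of the test in both lines. RPPH1 and RMRP, which that removal by gene name did not cover, stayed in. The part of RNA quality as a whole was not tested. Of the lung epithelial markers, KRT8 and KRT18 were at 1374 TPM or more in A549, but the alveolar genes NKX2-1, SFTPA1, SFTPB and SFTPC were at 0 to 0.27 TPM there. MDA-MB-231 had 2931 to 3149 TPM of VIM, a mesenchymal filament gene, and at most 0.9 TPM of the epithelial cadherin gene CDH1, where A549 had 251 to 656 TPM of VIM and 3.66 to 15.5 TPM of CDH1. Other epithelial markers were present in MDA-MB-231 as well, with EPCAM at 9.4 to 35.4 TPM (2.96 to 9.16 in A549), KRT19 at 194 to 706 TPM (40.3 to 304 in A549), KRT8 at 501 to 608 TPM and KRT18 at 480 to 561 TPM. Among the breast markers, ZEB1 (15.3 to 37.8 TPM), CD44 (502 to 734 TPM) and GATA3 (3.43 to 6.76 TPM) were higher in MDA-MB-231, as VIM was. In A549 they were at 4.51 to 8.04, 62.6 to 136 and 0.34 to 1.39 TPM. FOXA1 went the other way, at 0 to 2.57 TPM in MDA-MB-231 and 4.71 to 12.4 TPM in A549. ERBB2 overlapped, at 19.8 to 29.1 TPM and 13.5 to 21.9 TPM. ESR1, PGR, KRT5 and KRT14 stayed at or under 0.91 TPM in MDA-MB-231. Of the 6 leukocyte markers PTPRC stayed at or under 0.38 TPM, and CD68 was the one that was high, at 125 to 251 TPM in MDA-MB-231. The 6 fibroblast markers summed to at most 4.89 TPM and the 4 endothelial markers to at most 5.65 TPM in any library. In such bulk samples, fewer cells of a type and less RNA per cell cannot be told apart.

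In Matrigel, 8 of the 10 genes changed in each line. Within each line 3 rose and 5 fell. All 10 were among the 15304 genes tested with edgeR's quasi-likelihood test at an adjusted p of 0.05, and 65.6% of all tested genes were called in A549 and 67.6% in MDA-MB-231, so the share called is not particular to these genes. By direction, 34.1% of tested genes were called higher and 31.5% lower in A549, and 33.4% higher and 34.2% lower in MDA-MB-231. The median log2 fold change of the 10 genes was -0.23 in A549, where the median of all tested genes was 0.03, and -0.28 in MDA-MB-231, where that median was 0. TGFB1, TGFB2, TGFBR1, TGFBR2, SMAD3 and SMAD4 were called with the same sign in both lines, which makes 6 of 10 where 31.5% of all tested genes did so. TGFBR3 was called with opposite signs, as were 14.2% of tested genes. The 3D and 2D libraries did not overlap for 7 of the 10 genes in A549 and 9 in MDA-MB-231, where 64.8% and 75.2% of tested genes did not. The size of the change differed between the lines for 5 of the 10, with 2 higher and 3 lower in A549, where 56.1% of tested genes differed (29.3% higher and 26.7% lower). Levels below are read counts relative to the library total, scaled with TMM factors (CPM) where groups are compared, and TPM values, which divide by transcript length, where genes are compared.

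**Figure D1:**
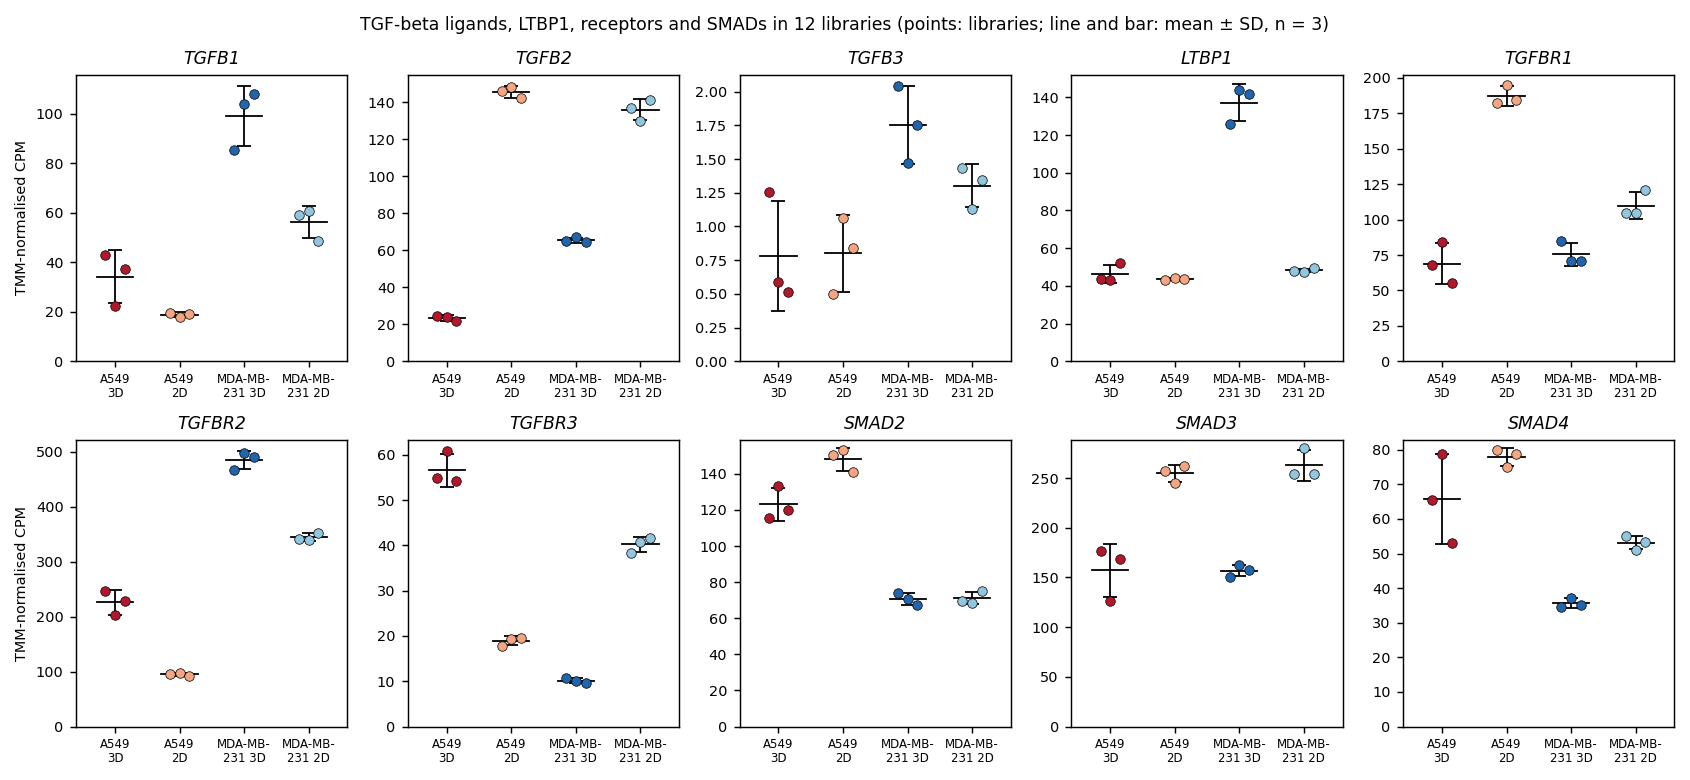
TMM-normalised CPM (linear axes from 0) of the 10 genes in 12 libraries, with A549 in red and MDA-MB-231 in blue and 3D left of 2D. Points are libraries and the line and bar are the mean and SD of 3. TGFB2 sits at 21.7 to 24.7 CPM in A549 3D against 142.2 to 148.3 CPM in A549 2D, while TGFBR3 is higher in 3D in A549 and lower in 3D in MDA-MB-231.

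The ligands moved in opposite directions. TGFB2, the ligand that depends most on the co-receptor, had 24.7, 23.6 and 21.7 CPM in A549 3D libraries, against 145.8, 148.3 and 142.2 CPM in A549 2D libraries. It was 6.29-fold lower in 3D, which is -2.65 ± 0.08 on the log2 scale (SE derived from the F statistic, edgeR adjusted p = 6.37e-13). In MDA-MB-231 it had 65, 67 and 64.4 CPM in 3D, against 137, 129.8 and 141.1 CPM in 2D, which is -1.05 ± 0.07 on the log2 scale (edgeR adjusted p = 6.1e-09). All 3D libraries of both lines lay below all 2D libraries, and in 2D the lines differed by 0.1 ± 0.07 on the log2 scale (A549 over MDA-MB-231, edgeR adjusted p = 0.197), a difference that becomes -0.67 on log2(TPM + 1) (limma adjusted p = 1.101e-06). TGFB2-AS1, an antisense gene, had 0 to 13 counts per library against 121 to 3251 for TGFB2 itself. The strand setting of the counting is not given in the sources used here, so reads of this pair cannot be told apart.

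TGFB1, the most widely expressed ligand gene, had 43.1, 22.3 and 37.1 CPM in A549 3D, against 19.6, 17.7 and 18.9 CPM in A549 2D. The second 3D library, which is also the shallowest, stands nearest to the 2D libraries, and the coefficient of variation was 31.4% in 3D and 5.19% in 2D. The log2 fold change was 0.9 ± 0.17 (edgeR adjusted p = 2.41e-04). In MDA-MB-231 the levels were 85.5, 103.8 and 108.1 CPM in 3D, against 58.9, 60.9 and 48.7 CPM in 2D, without overlap, and the log2 fold change was 0.82 ± 0.15 (edgeR adjusted p = 1.6e-04). The rises of the lines did not differ detectably (difference 0.08 ± 0.23, edgeR adjusted p = 0.809). Both calls depend on the scale: on log2(TPM + 1) the changes were 0.24 in A549 and 0.39 in MDA-MB-231 (limma adjusted p = 0.301 and 0.0972), where the median of all tested genes moved by -0.54 and -0.4 relative to the CPM scale.

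TGFB3 was the least abundant of the 10, with 3 to 34 counts in a library. Its level was 0.78 ± 0.41 CPM in A549 3D against 0.8 ± 0.29 CPM in A549 2D, with 1.75 ± 0.29 CPM in MDA-MB-231 3D against 1.3 ± 0.16 CPM in MDA-MB-231 2D (SD, n = 3 each). The log2 fold changes of -0.18 ± 0.4 and 0.4 ± 0.29 did not pass the test (edgeR adjusted p = 0.706 and 0.229), and no change was detectable at this depth.

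The ligand pool had another make-up in 3D, measured as shares of the summed TPM of the 3 ligand genes. TGFB2 made up 20.1%, 31.8% and 20.7% of it in A549 3D, against 76.5%, 78% and 76.4% in A549 2D. In MDA-MB-231 it made up 25%, 22.2% and 20.8% in 3D, against 50.3%, 48.2% and 55.7% in 2D. TGFB1 held 74.5% ± 6.65 in A549 3D against 22.3% ± 1.16 in A549 2D, with 76.3% ± 2.39 in MDA-MB-231 3D against 47.7% ± 3.98 in MDA-MB-231 2D. The ratio of TGFB1 to TGFB2 in TPM was thus 3.26 ± 1 in A549 3D against 0.289 ± 0.0184 in A549 2D, with 3.4 ± 0.417 in MDA-MB-231 3D against 0.936 ± 0.144 in MDA-MB-231 2D. A ratio within a library does not depend on how libraries are scaled against each other, and its ranges did not overlap between cultures in either line. A shift between cultures that depends on gene length could still move this ratio and those below, which was not tested.

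**Figure D2:**
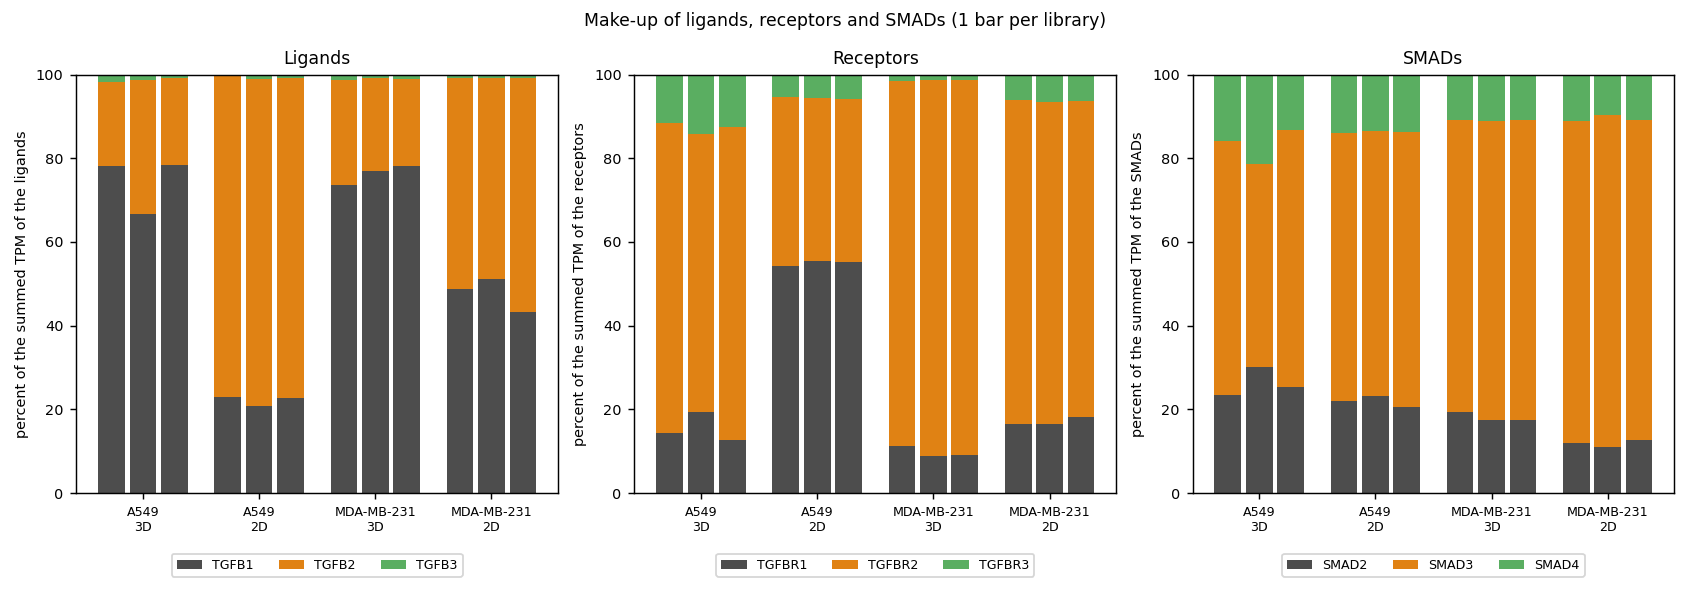
Share (percent) of each gene in the summed TPM of the ligands, the receptors and the SMADs, 1 stacked bar per library, with 3D left of 2D in each line. TGFB2 holds 20.1% to 31.8% of ligand TPM in A549 3D against 76.4% to 78% in A549 2D, while TGFBR1 holds 12.7% to 19.4% of receptor TPM in A549 3D against 54.3% to 55.4% in A549 2D.

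The starts of these 2 ligand genes and of TGFBR3, the gene with opposite changes in the lines, are shown. Each has 1 start in the RefSeq table (GRCh38.p14, a build other than the hg19 of the counts), and they differ in sequence. SMAD4 also has 1 start there and is not shown, with 2 GC boxes, no TATA motif and 66.7% G and C. Each run holds 300 bases, from 250 before the start to 50 after it, read 5′ to 3′ on the strand of the gene. Capitals mark every GC box (GGGCGG, or CCGCCC on the other strand) and every TATA motif (TATAAA, searched on both strands).
TGFB1, chr19:41353873-41354172, minus strand: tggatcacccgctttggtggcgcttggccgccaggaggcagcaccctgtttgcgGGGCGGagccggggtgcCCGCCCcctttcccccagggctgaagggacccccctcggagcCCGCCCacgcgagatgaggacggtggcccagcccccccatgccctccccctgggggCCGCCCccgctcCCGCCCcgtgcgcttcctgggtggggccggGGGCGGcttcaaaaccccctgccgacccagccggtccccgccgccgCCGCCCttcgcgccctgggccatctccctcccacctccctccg
TGFB2, chr1:218345086-218345385, plus strand: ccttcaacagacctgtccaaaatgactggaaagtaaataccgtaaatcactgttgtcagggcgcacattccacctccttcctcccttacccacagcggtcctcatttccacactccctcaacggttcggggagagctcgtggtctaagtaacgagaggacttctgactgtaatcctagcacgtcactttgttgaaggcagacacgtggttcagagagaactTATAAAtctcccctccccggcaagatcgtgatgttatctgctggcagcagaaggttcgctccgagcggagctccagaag
TGFBR3, chr1:91886102-91886401, minus strand: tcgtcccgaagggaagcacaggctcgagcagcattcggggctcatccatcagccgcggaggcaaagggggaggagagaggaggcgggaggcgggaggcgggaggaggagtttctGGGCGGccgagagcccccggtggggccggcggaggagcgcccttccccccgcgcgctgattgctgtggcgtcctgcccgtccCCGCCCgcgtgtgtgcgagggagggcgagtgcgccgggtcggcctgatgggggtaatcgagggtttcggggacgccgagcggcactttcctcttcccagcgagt
The TGFB1 window held 7 GC boxes and no TATA motif, with 77.3% G and C. TGFB2 held no GC box and 1 TATA motif, which begins 29 bases before the start, with 51.7% G and C. TGFBR3 held 2 GC boxes and no TATA motif, with 71.7% G and C. Of all 35116 windows in the table, 45% hold a GC box and 11.5% a TATA motif, so neither is rare, and a match is a description of the letters. All 10 genes matched the table, where the count of starts ran from 1 to 8 per gene. The SMAD core motif CAGAC, in either direction, had 2 matches in the TGFB2 window and 0 in the others shown, and 45.3% of all windows hold it.

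LTBP1, which stores latent ligand in the matrix, set the lines apart. It had 43.6, 43.4 and 52 CPM in A549 3D, against 43.3, 44.3 and 43.6 CPM in A549 2D, with overlap, and the log2 fold change of 0.1 ± 0.09 did not pass (edgeR adjusted p = 0.328). On log2(TPM + 1) its value turned to -0.42 (limma adjusted p = 0.00105), where all tested genes moved by -0.54 at the median. In MDA-MB-231 it had 125.8, 143.8 and 141.6 CPM in 3D, against 48.1, 47.6 and 49.3 CPM in 2D, 2.84-fold higher in 3D (log2 fold change 1.51 ± 0.08, edgeR adjusted p = 9.76e-10). The change in A549 minus that in MDA-MB-231 was -1.41 ± 0.12 (edgeR adjusted p = 1.36e-07). LTBP1 per TGFB1, in TPM, was 0.67 ± 0.214 in A549 3D against 1.07 ± 0.0615 in A549 2D, yet 0.7 ± 0.0459 in MDA-MB-231 3D against 0.434 ± 0.0629 in MDA-MB-231 2D.

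Both lines in Matrigel had less message of the type I receptor and more of the type II receptor. TGFBR1, the kinase that phosphorylates the SMADs, had 67.7, 84 and 55.1 CPM in A549 3D, against 182.4, 195.4 and 184.2 CPM in A549 2D, with a log2 fold change at -1.47 ± 0.13 (edgeR adjusted p = 6.47e-08). In MDA-MB-231 it had 85, 70.6 and 70.6 CPM in 3D, against 104.4, 104.5 and 120.8 CPM in 2D, which is -0.55 ± 0.12 on the log2 scale (edgeR adjusted p = 8.75e-04). That call was lost when a trend of counts on gene length was removed from each library (-0.19, edgeR adjusted p = 0.174). No 3D library reached a 2D library in either line. The fall was larger in A549, with a change in A549 minus that in MDA-MB-231 of -0.92 ± 0.17 (edgeR adjusted p = 3.25e-04).

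TGFBR2, which binds the ligand, had 247.5, 202.6 and 229.2 CPM in A549 3D, against 95.4, 97.4 and 91.5 CPM in A549 2D, 2.39-fold higher in 3D (log2 fold change 1.26 ± 0.08, edgeR adjusted p = 1.9e-09). In MDA-MB-231 it had 467.1, 498.3 and 489.8 CPM in 3D, against 341.4, 340.3 and 353.1 CPM in 2D (0.49 ± 0.08, edgeR adjusted p = 3.18e-05), and on log2(TPM + 1) this second change was 0.08 (limma adjusted p = 0.47). The rise was larger in A549 by 0.77 ± 0.11 (edgeR adjusted p = 2.45e-05). TPM of TGFBR2 per TPM of TGFBR1 was 5.18, 3.42 and 5.89 in A549 3D, against 0.743, 0.706 and 0.703 in A549 2D. It was 7.8, 10 and 9.86 in MDA-MB-231 3D, against 4.66, 4.63 and 4.16 in MDA-MB-231 2D. TGFBR1 was thus the more abundant of the pair in A549 2D alone among the 4 groups, and the ratio was higher in every 3D library than in any 2D library of the same line.

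**Figure D3:**
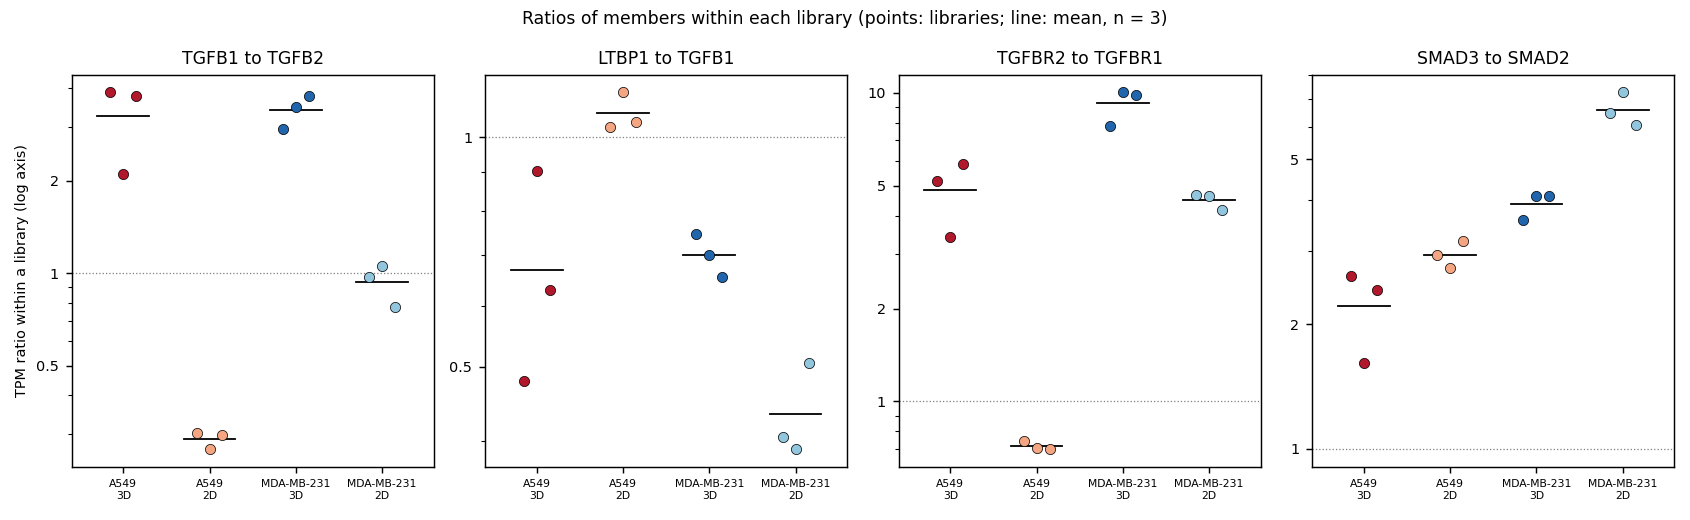
Ratios of TPM within each library (log axis), with points for libraries, a line for the mean of 3, and 3D left of 2D in each line. TGFBR2 to TGFBR1 lies at 3.42 to 5.89 in A549 3D against 0.703 to 0.743 in A549 2D, while the LTBP1 to TGFB1 ratio is lower in 3D in A549 and higher in 3D in MDA-MB-231.

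TGFBR3, the co-receptor, changed in opposite directions. It had 54.8, 60.7 and 54.2 CPM in A549 3D, against 17.9, 19.4 and 19.6 CPM in A549 2D, 2.97-fold higher in 3D (log2 fold change 1.57 ± 0.08, edgeR adjusted p = 3.28e-10). In MDA-MB-231 it had 10.8, 10.1 and 9.53 CPM in 3D, against 38.4, 40.6 and 41.7 CPM in 2D, 3.99-fold lower in 3D (-2 ± 0.09, edgeR adjusted p = 1.47e-10). The cultures did not overlap in either line, and the difference between the changes was 3.57 ± 0.12 (edgeR adjusted p = 1.03e-11). This was the largest difference between lines among the 10 genes. The share of TGFBR3 in receptor TPM was 12.8% ± 1.26 in A549 3D against 5.61% ± 0.288 in A549 2D, with 1.32% ± 0.0915 in MDA-MB-231 3D against 6.36% ± 0.19 in MDA-MB-231 2D.

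Of the signal transducers, SMAD3 fell to a similar extent in both lines. It had 176.6, 126.2 and 168.5 CPM in A549 3D, against 257.4, 244.9 and 261.8 CPM in A549 2D (log2 fold change -0.69 ± 0.1, edgeR adjusted p = 2.3e-05). In MDA-MB-231 it had 150.6, 162.5 and 157.9 CPM in 3D, against 254, 280.8 and 254 CPM in 2D (-0.74 ± 0.1, edgeR adjusted p = 8.49e-06). The changes differed by 0.05 ± 0.14 (edgeR adjusted p = 0.794), so no difference between the lines was detectable.

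SMAD2, the other receptor-activated SMAD, had 115.7, 133.4 and 120.2 CPM in A549 3D, against 150.2, 153.2 and 140.8 CPM in A549 2D, which is -0.27 ± 0.08 on the log2 scale (edgeR adjusted p = 0.00565), a call that missed the threshold when the 6 A549 libraries were fitted alone (adjusted p = 0.0565). In MDA-MB-231 SMAD2 had 73.8, 70.5 and 67.5 CPM in 3D, against 69.7, 68.7 and 74.9 CPM in 2D, with overlap (-0.01 ± 0.08, edgeR adjusted p = 0.931), although on log2(TPM + 1) the value was -0.39 (limma adjusted p = 7.59e-04). The difference between the lines in SMAD2 was -0.26 ± 0.11 with an edgeR adjusted p of 0.0529, and passed the threshold without the second A549 3D library (-0.31, edgeR adjusted p = 0.00779) or the third MDA-MB-231 2D library (-0.3, edgeR adjusted p = 0.0462). It also passed with the gene length trend removed (-0.77, edgeR adjusted p = 5.758e-05), on log2(TPM + 1) (-0.37, limma adjusted p = 0.0115), with voom and group weights (-0.26, limma adjusted p = 0.0446) and without small and ribosomal RNA genes (-0.26, edgeR adjusted p = 0.04999). SMAD3 per SMAD2 in TPM was 2.21 ± 0.531 in A549 3D against 2.94 ± 0.219 in A549 2D, with 3.91 ± 0.286 in MDA-MB-231 3D against 6.6 ± 0.615 in MDA-MB-231 2D.

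SMAD4, the shared partner, had 34.6, 37.2 and 35.3 CPM in MDA-MB-231 3D, against 55.1, 51.2 and 53.3 CPM in MDA-MB-231 2D, without overlap (log2 fold change -0.57 ± 0.11, edgeR adjusted p = 2.33e-04). In A549 it had 65.4, 78.9 and 53 CPM in 3D, against 80, 74.9 and 78.7 CPM in 2D, with overlap. The log2 fold change of -0.27 ± 0.11 in A549 was barely called (edgeR adjusted p = 0.0399) and was lost with RLE or upper-quartile scaling, with DESeq2, with 6 libraries alone and when any of 5 of the 6 libraries was left out, with adjusted p from 0.0579 to 0.227 in those 5. Without the third A549 3D library it was -0.12, and the difference between the lines, 0.3 ± 0.15 (edgeR adjusted p = 0.107), became 0.45 (edgeR adjusted p = 0.00264). The libraries of SMAD4 thus show a fall in MDA-MB-231, while the A549 value depends on the processing.

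**Figure D4:**
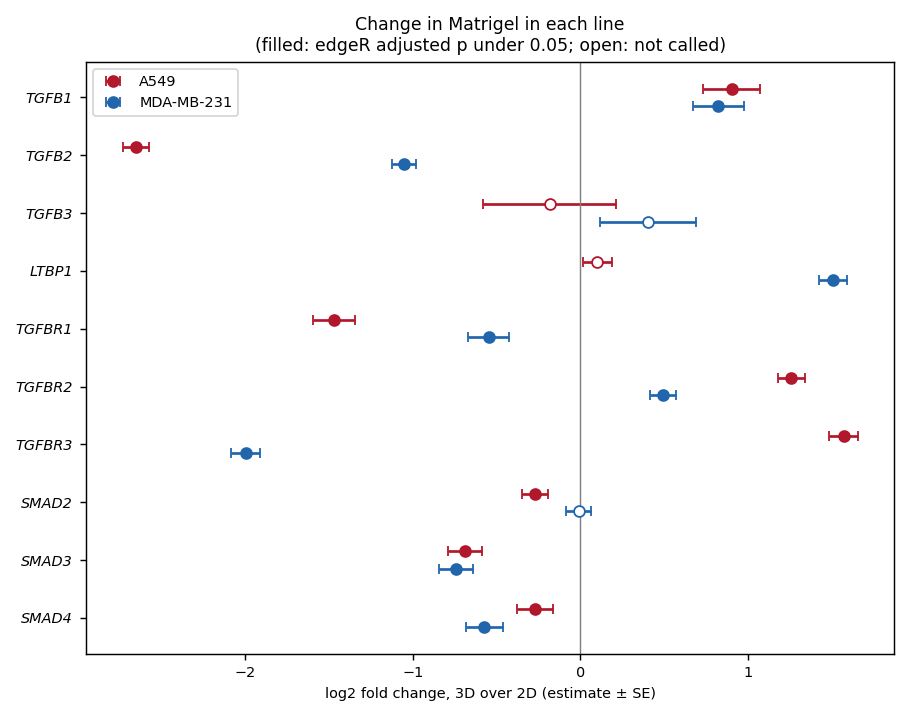
Log2 fold change, 3D over 2D, with SE, for each gene in A549 (red, upper) and MDA-MB-231 (blue, lower); filled points passed edgeR's test at an adjusted p of 0.05 and open points did not. TGFB1, TGFB2, TGFBR1, TGFBR2, SMAD3 and SMAD4 lie on the same side of 0 in both lines, and TGFBR3 lies at 1.57 in A549 and -2 in MDA-MB-231.

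Between the lines, the levels were compared on CPM within each culture. In 3D, 3 of the 10 genes were higher in A549 and 5 lower, where 43.9% and 39.2% of all tested genes were (83% in either direction). In 2D, 3 were higher and 3 lower, where 42.8% and 38.8% of tested genes were (81.6% in either direction). The libraries of the lines did not overlap for 8 genes in 3D and 9 in 2D, where 81% and 87% of tested genes did not. TGFB1 was lower in A549 in both cultures, with log2 differences of -1.5 ± 0.16 in 3D and -1.58 ± 0.16 in 2D (edgeR adjusted p = 3.12e-07 and 1.87e-07). TGFBR2 was lower in A549, with differences of -1.1 ± 0.08 in 3D and -1.86 ± 0.08 in 2D. TGFBR3 was higher in A549 in 3D (2.48 ± 0.09) and lower in A549 in 2D (-1.09 ± 0.08). TGFB2, at -1.5 ± 0.08, and LTBP1, at -1.55 ± 0.09, were lower in A549 in 3D, and neither passed in 2D. In 2D LTBP1 was called lower in A549 with the 6 libraries alone (-0.19, edgeR adjusted p = 0.00345), with voom and group weights (-0.14, limma adjusted p = 0.0307) and on log2(TPM + 1) (-0.99, limma adjusted p = 3.856e-07), and TGFB2 was called higher with the gene length trend removed (0.15, edgeR adjusted p = 0.0433). TGFB3 was lower in A549 in 3D (-1.28 ± 0.36, edgeR adjusted p = 0.00403), but not without the third A549 3D library (-0.8, edgeR adjusted p = 0.0903), while in 2D its value of -0.69 ± 0.31 did not pass (edgeR adjusted p = 0.0524). It was called lower in A549 in 2D without the second A549 2D library (-0.96, edgeR adjusted p = 0.0278), with RLE scaling (-0.72, edgeR adjusted p = 0.0455), with the 6 libraries alone (-0.74, edgeR adjusted p = 0.0231), with voom and group weights (-0.73, limma adjusted p = 0.0125) and on log2(TPM + 1) (-0.51, limma adjusted p = 2.061e-04). TGFBR1 was not called in 3D (-0.15 ± 0.13, edgeR adjusted p = 0.27) and was called lower in A549 there without the second A549 3D library (-0.31, edgeR adjusted p = 0.011), with the gene length trend removed (-0.41, edgeR adjusted p = 0.0074) and on log2(TPM + 1) (-0.99, limma adjusted p = 3.813e-06). In 2D TGFBR1 was called higher in A549 (0.77 ± 0.12, edgeR adjusted p = 2.09e-05), but not on log2(TPM + 1) (-0.012, limma adjusted p = 0.93). SMAD3 was not called in either culture on CPM, and was called lower in A549 on log2(TPM + 1) in 3D (-0.94, limma adjusted p = 1.611e-05) and in 2D (-0.87, limma adjusted p = 3.334e-05), and in 3D with the gene length trend removed (-0.23, edgeR adjusted p = 0.0426). SMAD2 and SMAD4 were higher in A549 in both cultures on CPM, by 0.8 and 0.85 in 3D and 1.06 and 0.55 in 2D, but on log2(TPM + 1) SMAD4 was at -0.05 in 3D and -0.22 in 2D and SMAD2 at -0.11 in 3D. That scale moved the median of all tested genes by -0.91 in 3D and -0.77 in 2D. Ribosomal and small RNA genes found by name took 13.7% to 20.7% of TPM in A549 libraries and 0.557% to 3.66% in MDA-MB-231 libraries. Outside that set, RPPH1 alone took 19.2% to 19.7% of TPM in A549 3D libraries, and RMRP 10.6% to 13% in A549 2D libraries. By TPM, TGFBR2 led the 10 genes in A549 3D (44.8) and in both MDA-MB-231 groups (181.4 in 3D and 171.9 in 2D), and SMAD3 led in A549 2D (54.6), with no overlap with the next gene in any of these groups.

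For each of the 10 genes, the genes with the nearest pattern were found among 10450 tested genes whose mean log2 CPM reached 3, by the root mean square difference of centred log2 CPM over the 12 libraries. TGFB2 lay nearest to CAV1, a caveola coat gene that is also among the receptor-handling genes below, at 0.172, and then to SPDL1. CAV1 itself had log2 fold changes of -2.48 in A549 and -1.16 in MDA-MB-231. TGFBR2 lay nearest to ARHGEF2, at 0.0892, and LTBP1 to PLOD1, which encodes a collagen lysyl hydroxylase, at 0.0797. TGFBR3 had a less close neighbour, FAM8A1 at 0.287, and TGFB3, with its low counts, TPST2 at 0.286. TGFB1 lay nearest to SF3A1, TGFBR1 to TMX1, SMAD2 to AVL9, SMAD3 to PKP4 and SMAD4 to STK26. Within the 10 genes, the closest pairs were SMAD2 with SMAD4, at 0.255, and TGFB1 with TGFBR2, at 0.27.

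Genes of storage and release of the ligand were described from a list of 19 tested genes other than the 10. In A549 7 were higher and 9 lower in 3D (median log2 fold change -0.29), where 34.1% and 31.5% of all tested genes were. In MDA-MB-231 9 were higher and 3 lower (median 0.48), where 33.4% and 34.2% were. FN1, the fibronectin on which latent complexes assemble, had 3800 ± 845 CPM in A549 3D against 166.3 ± 5.79 CPM in A549 2D (log2 fold change 4.51 ± 0.14, edgeR adjusted p = 8.25e-13). PCSK5 had 81.2 ± 6.68 CPM in A549 3D against 5.98 ± 0.926 CPM in A549 2D (3.77 ± 0.13, edgeR adjusted p = 3.29e-12). ITGB8, a subunit of an integrin that releases TGF-beta, had 34.1 ± 7.17 CPM in A549 3D against 4.11 ± 0.264 CPM in A549 2D (3.01 ± 0.17, edgeR adjusted p = 5.55e-10). ITGB6, the beta subunit of another such integrin and chosen after its values were seen, had 1.06 ± 0.404 CPM in A549 3D against 13 ± 1.5 CPM in A549 2D (-3.78 ± 0.25, edgeR adjusted p = 2.91e-09). THBS1, whose product thrombospondin can activate latent TGF-beta, went opposite ways: 73 ± 6.81 CPM in A549 3D against 286.1 ± 7.89 CPM in A549 2D, yet 1560 ± 30.6 CPM in MDA-MB-231 3D against 612.4 ± 3.89 CPM in MDA-MB-231 2D. Its changes were -1.96 ± 0.08 and 1.35 ± 0.07, and the difference between them -3.31 ± 0.11 (edgeR adjusted p = 6.32e-12). ITGAV, the shared subunit of those integrins, fell by 0.7 ± 0.14 in A549 and by 1.41 ± 0.15 in MDA-MB-231. MMP9, a matrix protease, rose by 2.9 ± 0.33 in MDA-MB-231. It was called lower in A549 (-1.46 ± 0.6, edgeR adjusted p = 0.0443), with 11 counts in 3D and 42 in 2D.

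Feedback and trafficking genes of the receptors numbered 16. In A549 4 rose and 6 fell (median -0.04), where 34.1% and 31.5% of all tested genes did. In MDA-MB-231 3 rose and 6 fell (median -0.11), where 33.4% and 34.2% did. PMEPA1, which encodes a membrane protein that holds back SMAD activation and is itself induced by TGF-beta, had 10.5 ± 0.467 CPM in A549 3D against 222.3 ± 11.3 CPM in A549 2D (log2 fold change -4.41 ± 0.09, edgeR adjusted p = 1.6e-14). BAMBI, a decoy receptor, had 194.9 ± 4.5 CPM in A549 3D against 17.2 ± 0.476 CPM in A549 2D (3.5 ± 0.1, edgeR adjusted p = 3.4e-13). SMURF2, a ubiquitin ligase that degrades receptors and SMADs, fell by 1.31 ± 0.08 in A549. PMEPA1 was called higher in MDA-MB-231, while SMURF2 was called lower there too. In MDA-MB-231, SDC2, a heparan sulphate proteoglycan, fell by 0.9 ± 0.1 and STUB1, a ubiquitin ligase, rose by 0.97 ± 0.09.

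Of 16 inhibitory or other SMADs and SMAD partners, 5 rose and 5 fell in A549 (median -0.06), where 34.1% and 31.5% of all tested genes did. In MDA-MB-231 4 rose and 8 fell (median -0.27), where 33.4% and 34.2% did. SMAD7, the inhibitory SMAD that TGF-beta induces, had 10.5 ± 2.38 CPM in A549 3D against 41.3 ± 3.81 CPM in A549 2D (log2 fold change -1.93 ± 0.12, edgeR adjusted p = 2.48e-09). In A549 SMAD6, the inhibitory SMAD of the BMP branch, rose by 0.98 ± 0.11, and the co-repressor gene TGIF2 fell by 1.39 ± 0.11. In MDA-MB-231 SKIL, a repressor of SMAD transcription, fell by 1.52 ± 0.2 and SMAD5, a BMP-branch SMAD, fell by 0.94 ± 0.09. Both were called lower in A549 as well, while SMAD7 was called higher in MDA-MB-231.

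Genes that TGF-beta is widely known to raise in epithelial cells moved differently in the lines. Of the 35 tested, 28 fell and 7 rose in A549 3D (median log2 fold change -1.64), where 31.5% and 34.1% of all tested genes did. In MDA-MB-231 3D 21 rose and 8 fell (median 0.49), where 33.4% and 34.2% did. The difference between lines was called lower in A549 for 25 of 35 and higher for 6 (median -2.37). Of all tested genes, 26.7% were called lower and 29.3% higher in that comparison. Of the 35, 16 fell in A549 and rose in MDA-MB-231, a pattern held by 7.21% of all tested genes, and all 16 passed the test of the difference. Lists share genes: of these 16, LTBP2, MMP2, MMP9 and THBS1 are also among the storage and release genes. PMEPA1 is also among the trafficking genes and SMAD7 among the SMAD partners. The list was chosen with earlier results of these data known, so it is not independent evidence of its direction. On log2(TPM + 1), 13 rose and 12 fell in MDA-MB-231 (limma), so the count of rises there depends on the scale, while 29 fell in A549.

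IL11, a cytokine gene, had 0.293 ± 0.125 CPM in A549 3D against 45.8 ± 1.17 CPM in A549 2D (log2 fold change -6.96 ± 0.16, edgeR adjusted p = 3.89e-14). COL5A1, a fibrillar collagen gene, had 2.77 ± 0.919 CPM in A549 3D against 143.9 ± 8.59 CPM in A549 2D (-5.52 ± 0.14, edgeR adjusted p = 9.38e-14), yet 127.3 ± 4.13 CPM in MDA-MB-231 3D against 58.5 ± 4.21 CPM in MDA-MB-231 2D (1.12 ± 0.09). IL11 was called higher in MDA-MB-231, as COL5A1 was. ADAM19, a metalloprotease gene, fell by 4.73 ± 0.11 in A549. In MDA-MB-231, ANGPTL4, a secreted regulator of lipase activity, rose by 2.51 ± 0.14 and TGM2, a matrix crosslinking enzyme, by 1.53 ± 0.09. TAGLN, an actin-binding protein of contractile cells, fell there by 2.57 ± 0.13. Their changes in A549 were -0.65 ± 0.15 for ANGPTL4, 0.91 ± 0.09 for TGM2 and -5.27 ± 0.16 for TAGLN. FN1, also on this list, went the other way in A549, as given above.

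Of 18 tested genes that TGF-beta is known to lower in epithelial cells, 9 rose and 6 fell in A549 (median 1.34). There, 34.1% of all tested genes rose and 31.5% fell. In MDA-MB-231 7 rose and 7 fell (median -0.15), where 33.4% and 34.2% did. ID1, a differentiation inhibitor that BMP signals also raise, had 392.1 ± 40 CPM in A549 3D against 44 ± 3.84 CPM in A549 2D (log2 fold change 3.16 ± 0.09, edgeR adjusted p = 6.37e-13). CDH1, the epithelial cadherin gene, had 65.8 ± 9.77 CPM in A549 3D against 13.5 ± 0.637 CPM in A549 2D (2.3 ± 0.13, edgeR adjusted p = 3.98e-10), yet 0.192 ± 0.124 CPM in MDA-MB-231 3D against 1.47 ± 0.366 CPM in MDA-MB-231 2D (-2.79 ± 0.4, edgeR adjusted p = 1.55e-05). CDH1, DSP and EPCAM were the 3 genes of this list called higher in A549 and lower in MDA-MB-231. CDK4 and MYC had the reverse pattern, lower in A549 and higher in MDA-MB-231, as 7.21% of all tested genes had. Opposite signs in either order were called for 14.2% of all tested genes. The keratin gene KRT19 rose by 3.14 ± 0.11 in A549 and 2.19 ± 0.1 in MDA-MB-231. Of the 6 that fell in A549, CDC25A changed by -1.87 ± 0.13, MYC by -1.17 ± 0.1 and CLDN1 by -0.86 ± 0.13. The others were CDKN3 (-0.53 ± 0.08), CDK4 (-0.42 ± 0.09) and OCLN (-0.33 ± 0.12). In MDA-MB-231 the claudin gene CLDN1 fell by 1.64 ± 0.14 and CLDN4 rose by 1.41 ± 0.09.

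**Figure D5:**
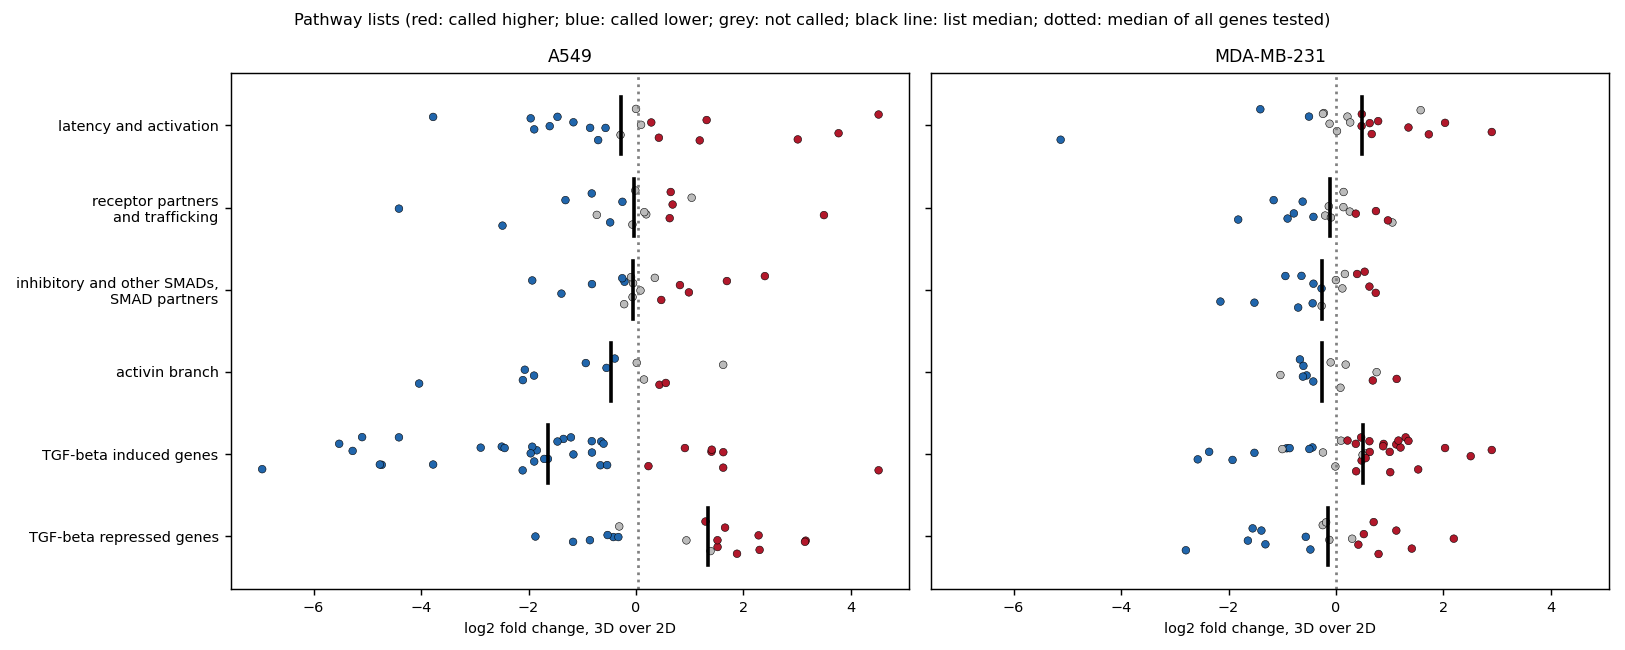
Log2 fold changes, 3D over 2D, of the tested genes of 6 pathway lists in A549 (left) and MDA-MB-231 (right); red and blue points were called higher and lower, grey points were not called, black lines are list medians and the dotted line is the median of all tested genes. The medians of TGF-beta induced genes lie at -1.64 in A549 and 0.49 in MDA-MB-231.

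The deposited transcript length, a mean weighted by isoform, was compared as a further readout of the 10 genes wherever it varied, in 15 exact permutation tests of 3 against 3 libraries, for which the smallest two-sided p is 0.1. TGFBR1 in both lines, SMAD2 in A549 and SMAD3 in MDA-MB-231 reached it, each longer in 3D and without overlap, and each had an adjusted p of 0.375. The largest of these differences was 73.1 bases, for SMAD3 in MDA-MB-231, with 6032 ± 38.6 bases in 3D and 5959 ± 15.9 bases in 2D.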

How the data were processed

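RNA sequencing of 12 libraries was used, with groups taken from the sample titles. Per the labels' protocols, TRIZOL served for extraction and a stranded total RNA kit with ribosomal depletion for the libraries. RSEM and the build hg19 are named in the submitters' processing notes. Each deposited table holds an expected count per gene, which estimates its reads, and its TPM, scaled by the authors to transcript length and library total. The sources used here give no aligner, RSEM version, annotation or strand setting. Columns of other series numbered 0.

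Expected counts were rounded, filtered with filterByExpr (15304 genes left) and scaled by TMM, with factors from 0.809 to 1.13. A model of 4 group means over the 12 libraries was fitted with edgeR 4.0.16 in R 4.3.3, and two-sided p-values were adjusted by Benjamini-Hochberg over all genes tested, at a threshold of 0.05. The 4 groups share the estimate of a gene's spread, although A549 3D replicates stood furthest apart. An SE or p-value for A549 3D thus draws on the spread of the tighter groups as well. The SE given for a log2 fold change is its absolute value over the square root of its F statistic. The steps were tested on counts simulated with the same spread of a gene in all groups. Such counts do not hold the wider spread of the A549 3D replicates. Replicate libraries differed by more than sampling noise (chi-square over its degrees of freedom from 2.71 to 162.8, ribosomal RNA included, highest in A549 3D). The 10 genes and the gene lists were chosen with earlier results of these data known. Named list genes were drawn from up to 4 per list and line with the smallest p among those that passed, and not all of these are described. Genes outside this rule are named too: ITGB6, genes called with opposite signs in the lines, and repressed genes that fell in A549. The alternatives tried were scaling by upper quartile or RLE, other filters, DESeq2 1.42.0, limma 3.58.1 on log2(TPM + 1) or on voom values with group weights, 6 libraries alone, a replicate block, removal of a gene length trend or of small RNA genes, and leaving out each library. Sequences are from the RefSeq table of GRCh38.p14.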

Additional observations from a re-analysis of the deposited data

Results flagged for a closer look

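Among the 10 genes, 5 had a change in Matrigel that differed between the lines by edgeR's test of the difference itself, where 56.1% of all tested genes did. The log2 change in A549 minus that in MDA-MB-231 was -1.6 for TGFB2, -0.92 for TGFBR1 and -1.41 for LTBP1, which were lower in A549, and 0.77 for TGFBR2 and 3.57 for TGFBR3, which were higher. TGFB2, TGFBR1 and TGFBR2 moved the same way in both lines by different amounts, TGFBR3 moved in opposite directions, and LTBP1 was called in MDA-MB-231 and not in A549.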

How the results depend on the processing

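The differences between lines of TGFB2, LTBP1, TGFBR1, TGFBR2 and TGFBR3 kept their direction and passed under every alternative that could be fitted. Of the counts of calls under the alternatives, 252 stayed within 1.5 times the reported count and 1 did not: 13 TGF-beta induced genes rose in MDA-MB-231 on log2(TPM + 1). The counts for that list and for the repressed genes were added after seeing the data. Of single-gene values, 831 kept their side, 21 newly passed, 16 no longer passed and 32 changed sign; the cause was not tested.

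On log2(TPM + 1) the signs turned for LTBP1 in A549 (-0.42), and for TGFB1 and SMAD3 in the difference between lines (-0.16 and -0.063). On that scale they turned between A549 and MDA-MB-231 in 2D for TGFB2 (-0.67), SMAD4 (-0.22) and TGFBR1 (-0.012), and in 3D for SMAD2 (-0.11), SMAD3 (-0.94) and SMAD4 (-0.0455). With the gene length trend removed they turned for SMAD2 in MDA-MB-231 (0.1975), SMAD3 and SMAD4 in the difference (-0.23 and -0.13), and SMAD3 between lines in 2D (0.0028) and 3D (-0.23). SMAD2 in MDA-MB-231 was 0.0012 with RLE and 5e-04 with DESeq2, and SMAD3 between lines in 3D was -0.0016 with RLE, -9e-04 with DESeq2 and -0.0197 without a filter.

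Leaving out 1 library gave -0.63 to 0.29 for TGFB3 and -0.0079 to 0.15 for LTBP1 in A549, and -0.0389 to 0.0283 for SMAD2 in MDA-MB-231. It gave -0.0782 to 0.25 for TGFB1 and -0.0299 to 0.18 for SMAD3 in the difference. Between lines it gave -0.0702 to 0.004 for SMAD3 in 2D, and -0.12 to 0.13 for SMAD3 and -0.31 to 0.0025 for TGFBR1 in 3D.

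The replicate numbers did not pair the libraries: correlations of same-numbered libraries' deviations were -0.136 to 0.0972, and 5 of 18 comparisons had their best match with their own number. With the number as a replicate block, SMAD4 in A549 had an edgeR adjusted p of 0.0504 (-0.27); the block changed no other call of the 10 genes, and the counts of called genes stayed within 1.5 times. TGFB3, at 3 to 34 counts, is limited by depth.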

Other observations

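The list of the activin branch, in which activins also signal through SMAD2 and SMAD3, had 12 tested genes of 21. It also counts GDF15, which is not an activin and was called higher in both lines. In A549 3D 2 were higher and 7 lower than in A549 2D (median log2 fold change -0.47), where 34.1% and 31.5% of all tested genes were. In MDA-MB-231 3D 2 were higher and 5 lower than in MDA-MB-231 2D (median -0.26), where 33.4% and 34.2% were. FST, which encodes follistatin, a binding protein that holds activin back, had 1.82 ± 0.397 CPM in A549 3D and 7.92 ± 1.12 CPM in A549 2D (log2 fold change -2.11 ± 0.18, edgeR adjusted p = 6.5e-08), and 13.1 ± 1.55 CPM in MDA-MB-231 3D and 20.1 ± 0.661 CPM in MDA-MB-231 2D (-0.61 ± 0.11, edgeR adjusted p = 1.86e-04). FSTL3, a related binding protein, fell by 1.9 ± 0.15 in A549 and was called higher in MDA-MB-231. INHBB, an activin subunit gene, fell by 0.93 ± 0.12 in A549, and the type II receptor gene ACVR2A fell by 0.67 ± 0.14 in MDA-MB-231. GDF15, a distant relative of TGF-beta, rose by 1.13 ± 0.15 in MDA-MB-231, to 11.2 ± 0.157 CPM in 3D, against 5.12 ± 1.05 CPM in 2D.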
